A study of Mus musculus with 9 samples.

Results

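The genes described here are Sprr2b, Sprr2d, Sprr2e, Sprr2f, Sprr2g, Lor and Cdsn, which encode proteins of the epidermal cornified envelope and its junctions. They were taken by gene name from the table of normalized counts, and all 7 were found among its 15184 genes. They had been chosen by their measured values, selected on normalized counts that lay on opposite sides of the control in the 2 Hnrnpk_SAM lines. Their differences between the groups are therefore given as a description, with no test, and tests are given for other genes only.

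The study asked what raised expression of Hnrnpk, the gene of an RNA- and DNA-binding protein, does to mouse embryonic fibroblasts. Polyadenylated RNA was sequenced from 9 libraries in 3 groups of 3. The groups were wild-type fibroblasts labelled with the genotype Empty vector, a line labelled SAM1 and a line labelled SAM2, the latter pair both carrying the genotype label Hnrnpk_SAM. Under the methods, the fibroblasts came from midgestation embryos. For raised Hnrnpk they were transduced with lentiMPHv2 and lentiSAMv2, the vectors of the CRISPR synergistic activation mediator, and were selected with blasticidin and hygromycin. The control was lentiSAMv2, the vector of the dCas9 activator, with a nontargeting guide. Whether the control cells also received lentiMPHv2 and the same selection is not stated. The methods print the same sequence for the nontargeting guide and for a guide against Hnrnpk. Guides against the Hnrnpk promoter were used one at a time, and the labels do not say which guide SAM1 or SAM2 carries. Neither the labels nor the methods say whether a line is a clone or whether the 3 libraries of a line came from separate cultures, so all spreads and p-values measure the variation between libraries, which may be technical. Hnrnpk itself was at 25058, 26098 and 26164 normalized counts in empty vector, 24102, 24044 and 23619 in the libraries labelled SAM1 and 26608, 26859 and 26221 in those labelled SAM2. It was lower in SAM1 (log2 difference -0.11, adjusted p = 0.00252 from limma) and not called different in SAM2 (0.04, adjusted p = 0.159 from limma). In these libraries the Hnrnpk counts therefore do not separate the groups as the genotype label would, and the names SAM1 and SAM2 stand below for the libraries labelled so, with directions relative to those labels. Reads on the listed genes ranged from 41759636 to 49026626 in the 8 libraries where they were recovered (median 46598033).

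In the upper epidermis, keratinocytes replace their membrane with the cornified envelope, a shell of proteins that transglutaminases cross-link on the inner face. Loricrin, the product of Lor, is its main component, and the small proline-rich proteins, which include the SPRR2 group, act as cross-bridges between loricrin and other precursors such as involucrin. Corneodesmosin, the product of Cdsn, is secreted and holds corneocytes together at the corneodesmosomes until proteases cleave it. Most precursor genes lie in the epidermal differentiation complex on mouse chromosome 3, and AP-1 factors (dimers of Jun and Fos proteins) are known regulators of many of them. Fibroblasts do not build a cornified envelope.

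In GRCm39, 6 of the 7 genes lie in the epidermal differentiation complex, within 295 kb of chromosome 3. Lor is on the minus strand at chr3:91987578-91990449. The Sprr2 genes follow on the plus strand in the order Sprr2b (chr3:92223927-92225444), Sprr2d (chr3:92246447-92248180), Sprr2e (chr3:92259450-92260756), Sprr2f (chr3:92272494-92273749) and Sprr2g (chr3:92281222-92282536), within 58.6 kb. Cdsn is on chromosome 17 at chr17:35863025-35868077, on the plus strand. Cdsn is the only one of the 7 genes that another annotated gene overlaps, with Gm65939 on the opposite strand at its 3′ end, and whether the counting used strand is not given in the sources used here.

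The sequences upstream of the starts are shown for the members with levels that moved together and with a promoter window in the RefSeq table, which is in the earlier build GRCm38.p6. The table had windows for 6 of the 7 genes, and Sprr2g had none. Each sequence is the 250 bases before the annotated start, 5′ to 3′ on the strand of the gene. Capitals mark TGANTCA, the AP-1 consensus, and TATAAA, the TATA element.
Sprr2b: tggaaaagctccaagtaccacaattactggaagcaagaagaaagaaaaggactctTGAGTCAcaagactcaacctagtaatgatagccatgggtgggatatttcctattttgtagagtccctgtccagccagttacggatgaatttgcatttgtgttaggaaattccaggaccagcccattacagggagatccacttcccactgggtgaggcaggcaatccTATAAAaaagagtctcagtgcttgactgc
Sprr2d: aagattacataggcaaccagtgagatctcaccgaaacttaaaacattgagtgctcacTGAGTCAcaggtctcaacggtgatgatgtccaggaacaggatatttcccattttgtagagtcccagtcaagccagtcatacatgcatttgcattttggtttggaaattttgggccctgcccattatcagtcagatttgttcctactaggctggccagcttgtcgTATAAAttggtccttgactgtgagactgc
Sprr2e: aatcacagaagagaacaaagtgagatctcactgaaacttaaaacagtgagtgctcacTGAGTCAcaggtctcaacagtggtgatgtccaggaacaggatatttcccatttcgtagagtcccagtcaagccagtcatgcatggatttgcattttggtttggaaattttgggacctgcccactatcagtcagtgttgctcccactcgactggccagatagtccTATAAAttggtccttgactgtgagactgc
Sprr2f: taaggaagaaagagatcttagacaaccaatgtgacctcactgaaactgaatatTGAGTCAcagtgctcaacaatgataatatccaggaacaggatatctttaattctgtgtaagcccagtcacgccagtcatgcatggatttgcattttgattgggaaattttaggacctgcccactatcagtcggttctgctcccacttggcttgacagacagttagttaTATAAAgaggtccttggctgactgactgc
Lor: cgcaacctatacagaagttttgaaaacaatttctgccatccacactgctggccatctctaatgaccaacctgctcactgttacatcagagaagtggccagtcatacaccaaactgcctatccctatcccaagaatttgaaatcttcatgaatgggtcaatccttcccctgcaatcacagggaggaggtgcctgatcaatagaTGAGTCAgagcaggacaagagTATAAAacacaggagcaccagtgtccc
The windows lie at chr3:92316455-92316704 (Sprr2b), chr3:92338890-92339139 (Sprr2d), chr3:92351893-92352142 (Sprr2e), chr3:92364937-92365186 (Sprr2f), all on the plus strand, and chr3:92083143-92083392 (Lor, minus strand) in GRCm38.p6. The 4 Sprr2 sequences held TGAGTCA with its first base 195, 193, 193 and 197 bases before the start and TATAAA 29 bases before it. In Lor the same letters stood at 48 and 27 bases before the start. Some relatives outside the selection held both motifs as well, with TGANTCA at 198 bases in Sprr2h, 193 in Sprr2i, 196 and 182 in Sprr2k, 146 and 116 in Sprr1a, 111 in Sprr1b and 116 in Ivl. Of these, Sprr1a and Ivl were higher in SAM1 than in empty vector. The windows of Sprr2a1, Sprr2a2, Sprr2a3, Sprr4, Lelp1, Lce1g, Lce1h and Tchh held neither motif, and that of Sprr3 held TATAAA only. Sprr2a3 and Lelp1 were nonetheless higher in SAM2 than in empty vector. Neither of the 2 windows of Cdsn held TGANTCA or TATAAA. Searched on both strands, TGANTCA was found in 6.75% of all 32851 windows of this length, TATAAA in 12.4%, and both together in 1.21%. CACCC, the core bound by KLF factors, was found in Sprr2b and Cdsn and in 52% of all windows, and GGAA, the core bound by ETS factors, was found in all 6 genes and in 93.4% of all windows. A match to TGANTCA can run into one to CACCC by 2 bases, and each motif was counted on its own. After global alignment, the upstream sequences of Sprr2d and Sprr2e were identical at 88.9% of positions, and the other pairs of Sprr2 genes at 61.3% to 72.6%. A match of letters is a description of these windows and not evidence of binding.

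All 7 genes were lower in every SAM1 library and higher in every SAM2 library than in all 3 empty vector libraries. Over all genes of the table, 3.84% showed this arrangement and 3.07% showed the reverse. It is the property on which the 7 genes were selected, so nothing is read from their count. The median difference in log2(normalized count + 1) over the 7 genes was -3.34 in SAM1 and 4.65 in SAM2, against 0.0093 and -0.0015 over all genes. The SPRR2 genes and Lor had group means of 0.642 to 10.7 normalized counts in SAM1 and of 399 to 4792 in SAM2, whereas Cdsn was abundant in the empty vector cells already. In RNA from bulk cultures, a change in the share of cells that carry a transcript and a change in its amount per cell cannot be told apart.

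**Figure D1:**
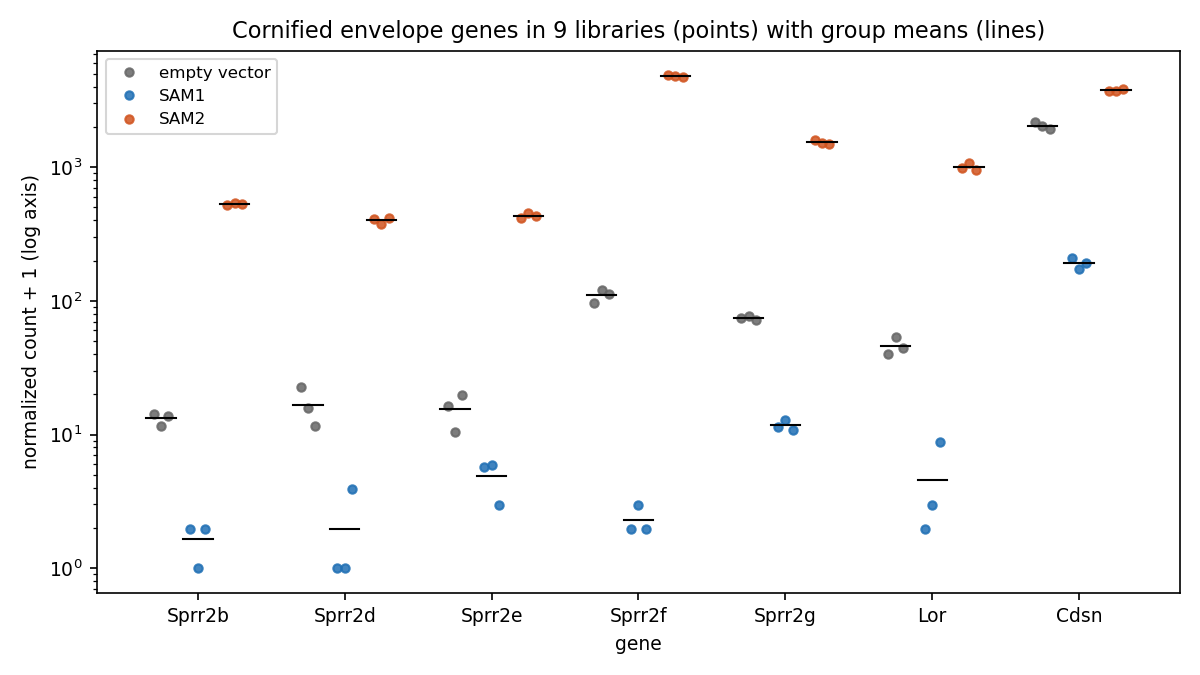
Normalized counts plus 1 (log axis) of the 7 genes in each of the 9 libraries (points) with the group means (lines). For each gene the 3 SAM1 libraries lie below and the 3 SAM2 libraries above the empty vector libraries; the points for Sprr2f span 0.949 to 4858 normalized counts.

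Sprr2f was the most abundant Sprr2 gene in the empty vector and SAM2 cells and had the widest range. Its normalized counts were 95.1, 119.7 and 112 in empty vector, 0.949, 1.97 and 0.977 in SAM1 and 4858, 4810.5 and 4706 in SAM2. The SAM1 libraries held 1 or 2 reads of it each, and no values of different groups overlapped. The group means were 109 ± 12.6, 1.30 ± 0.585 and 4792 ± 77.7 (SD, n = 3 each), so that SAM2 was 44.0-fold above empty vector. Over 303 reads in the empty vector and 4 in the SAM1 libraries, the ratio of empty vector to SAM1 was 84.0 (95% counting interval 32.5 to 310.4). Such intervals, which are exact (Clopper-Pearson), cover counting error only, because reads without molecular identifiers are not independent molecules.

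For Sprr2g the normalized counts were 73.7, 75.6 and 71.3 in empty vector, 10.4, 11.8 and 9.77 in SAM1 and 1585, 1524 and 1488 in SAM2. In SAM1 it had the highest normalized counts of the SPRR2 members. Its means were 73.5 ± 2.19, 10.7 ± 1.06 and 1533 ± 49.1 (SD, n = 3 each), 6.88-fold lower in SAM1 and 20.8-fold higher in SAM2 than in empty vector.

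Sprr2b had 13.3, 10.5 and 12.9 normalized counts in empty vector, 0.949, 0 and 0.977 in SAM1 and 516, 541 and 526 in SAM2. Sprr2d had 21.5, 14.7 and 10.5 in empty vector, 0, 0 and 2.93 in SAM1 and 406, 376 and 415 in SAM2. Both were near the limit of detection in SAM1, where the 3 libraries together held 2 and 3 reads, and where a library with 0 reads allows a level of up to 2.85 (SAM1 replicate 1) or 2.96 (SAM1 replicate 2) normalized counts. For Sprr2b the ratio of empty vector to SAM1 in reads was 18.9 (95% counting interval 4.83 to 162.03). For Sprr2d it was 16.3 (95% counting interval 5.22 to 81.9). Both intervals are wide, so the sizes of these ratios are poorly known at this depth. In SAM2 the means were 528 ± 12.2 and 399 ± 20.2 (SD, n = 3 each), 43.2-fold and 25.6-fold above the empty vector means of 12.2 ± 1.5 and 15.6 ± 5.54 (SD, n = 3 each).

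Sprr2e had 15.3, 9.45 and 18.7 normalized counts in empty vector, 4.75, 4.94 and 1.95 in SAM1 and 416, 452 and 429.6 in SAM2. Among the Sprr2 members it had the smallest ratio of empty vector to SAM1, 3.74 from means of 14.5 ± 4.68 and 3.88 ± 1.67 (SD, n = 3 each). Its lowest empty vector library (9.45) was still above its highest SAM1 library (4.94). The SAM2 mean of 433 ± 17.8 (SD, n = 3) was 29.8-fold above empty vector.

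Lor had 38.9, 52.5 and 43.2 normalized counts in empty vector, 0.949, 1.97 and 7.81 in SAM1 and 984, 1067 and 956 in SAM2. SAM1 replicate 3 stood above the other SAM1 libraries, and the group means were 44.9 ± 6.97, 3.58 ± 3.70 and 1002 ± 58.0 (SD, n = 3 each). The mean of empty vector was 12.5-fold that of SAM1, 30.7-fold without SAM1 replicate 3 and 9.17-fold without SAM1 replicate 1. The same fold of Sprr2b (19.0) was 12.7 without SAM1 replicate 2 and 25.7 without SAM1 replicate 3. That of Sprr2d (15.9) was 10.6 without SAM1 replicate 1 or 2 and could not be given without SAM1 replicate 3, since the remaining SAM1 libraries were at 0. For Sprr2e, Sprr2f, Sprr2g and Cdsn leaving out any library moved it by less than 1.5 times. Lor in SAM2 was 22.3-fold above empty vector.

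Cdsn stood apart from the SPRR2 genes and Lor in its level and in the balance of its differences. It had 2158, 2046 and 1933 normalized counts in empty vector, 209.8, 171 and 191 in SAM1 and 3732, 3698 and 3815 in SAM2. The groups were far apart compared with their spread, with means of 2046 ± 112, 191 ± 19.5 and 3748 ± 60.5 (SD, n = 3 each). Cdsn was 10.7-fold lower in SAM1 but 1.83-fold higher in SAM2 than in empty vector, whereas the other members were 20.8-fold to 44.0-fold higher in SAM2. Cdsn was also the only one of the 7 genes above 10 normalized counts in all 9 libraries. None of Sprr2b, Sprr2d, Sprr2e, Sprr2f and Lor exceeded 10 in any SAM1 library, and they are in the table, which holds genes above 10 in at least 3 libraries, through the empty vector and SAM2 libraries.

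When both lines were treated as one group, as their shared genotype label has it, the opposite differences partly cancelled. The pooled log2 difference of the 7 genes ranged from -1.27 (Cdsn) to 1.58 (Sprr2e), with a median of 0.65. The value for Sprr2f was -0.075, although its 2 lines differed by 11.05 on the log2 scale.

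Levels of different genes were compared per kb of exon. In empty vector cells Cdsn led with 764 ± 41.8 normalized counts per kb (SD, n = 3), followed by Sprr2f with 179 ± 20.7 and Sprr2g with 113 ± 3.36 (SD, n = 3 each). Sprr2d, Lor, Sprr2e and Sprr2b followed at 14.6 to 22.9 per kb, each with a range that overlapped its neighbour in this order. In SAM1 Cdsn again led, with 71.2 ± 7.27 per kb (SD, n = 3), followed by Sprr2g with 16.4 ± 1.63 (SD, n = 3), and the other 5 genes lay between 0.768 and 6.0 per kb with overlapping neighbours. In SAM2 the order turned, with Sprr2f at 7868 ± 128 per kb and Sprr2g at 2354 ± 75.4 above Cdsn at 1399.6 ± 22.6 (SD, n = 3 each). Sprr2e, Sprr2b, Sprr2d and Lor followed at 668, 631, 586 and 510.4 per kb, and of these neighbours only Sprr2e and Sprr2b overlapped.

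The summed normalized count of the 8 Sprr2 genes in the table was 259 ± 7.63 in empty vector, 39.8 ± 3.28 in SAM1 and 8247 ± 96.0 in SAM2 (SD, n = 3 each). Its makeup differed between the groups. Sprr2f took 42.2% ± 4.96 of the sum in empty vector, 3.23% ± 1.25 in SAM1 and 58.1% ± 0.316 in SAM2 (SD, n = 3 each). Sprr2h, a paralog that is not among the 7 genes, took 10.2% ± 3.43, 47.0% ± 3.98 and 4.26% ± 0.277 (SD, n = 3 each). Sprr2g took 28.4%, 26.8% and 18.6%, so that the SAM1 sum consisted mainly of Sprr2h and Sprr2g.

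**Figure D2:**
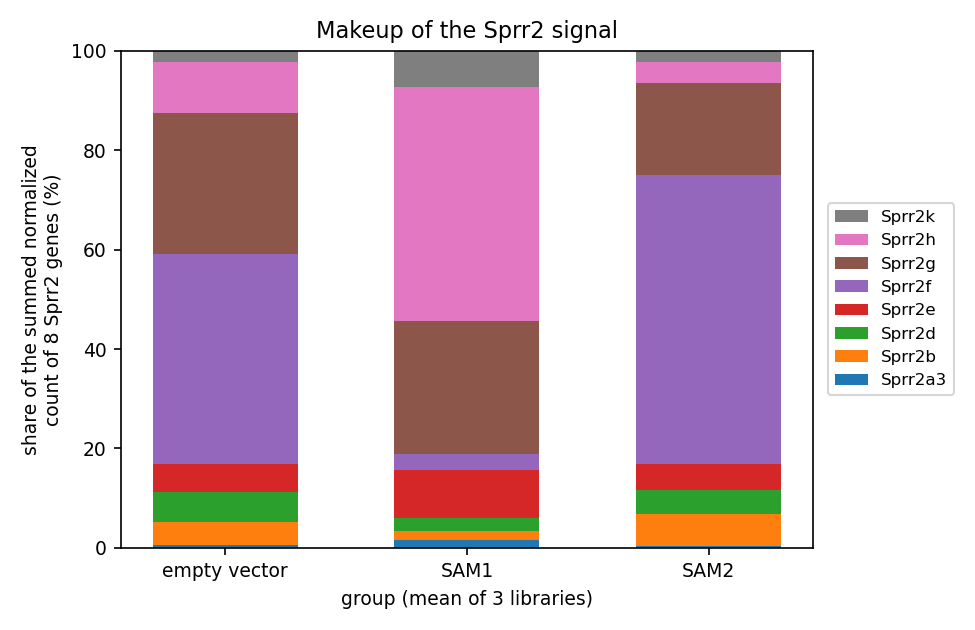
Mean share (%) of each of 8 Sprr2 genes in their summed normalized count in empty vector, SAM1 and SAM2 (3 libraries each). Sprr2f makes up 42.2% in empty vector, 3.23% in SAM1 and 58.1% in SAM2, and Sprr2h 47.0% in SAM1.

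Sprr2 genes are close paralogs, and the alignment allowed up to 20 hits per read. Of the 43-base stretches (the read length) in the annotated transcripts of each gene, 18.4% in Sprr2b, 5.32% in Sprr2d, 13.6% in Sprr2e and 2.65% in Sprr2f also occurred in a transcript of another gene. Sprr2b shared most with Sprr2a1 and Sprr2a2, and Sprr2d and Sprr2e shared most with Sprr2i, none of which has a value in the table. No stretch of Sprr2g or Lor was shared, and the 3.10% shared by Cdsn was with Gm65939. The values of Sprr2b, Sprr2d, Sprr2e and Sprr2f are uncertain to the extent that reads were shared, and how shared reads were assigned was not tested.

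The SPRR genes outside the selection shared the increase in SAM2 but not uniformly the decrease in SAM1. Sprr2k, Sprr2a3 and Sprr1b are in the table through the SAM2 libraries alone, so their increase there was tied to that filter. In SAM2, Sprr2h rose from 26.5 ± 9.35 to 351 ± 19.3 normalized counts (SD, n = 3 each), a log2 difference of 3.74 (adjusted p = 5.90e-09 from limma). Sprr2k (4.75, adjusted p = 3.13e-09) and Sprr2a3 (4.06, adjusted p = 1.64e-05 from limma) rose as well, the latter from levels close to 1 read per library and with 65.1% of its stretches shared with other genes. In SAM1, the log2 difference of Sprr2h was -0.42 (adjusted p = 0.1003 from limma), with 20.9, 19.7 and 15.6 normalized counts against 34.8, 28.4 and 16.4, so its groups overlapped. That of Sprr2a3 was -0.40 (adjusted p = 0.520 from limma), and -1.44 under quantile normalization (adjusted p = 0.0182 from limma), where it was called lower. Sprr2k fell by 0.80 on the log2 scale in SAM1 (adjusted p = 0.0148 from limma), a call that was lost without empty vector replicate 3 (adjusted p = 0.0513) or SAM1 replicate 1 (adjusted p = 0.0554), with a pseudocount of 10 (adjusted p = 0.0560) and under both count tests (adjusted p = 0.121 from edgeR and 0.154 from DESeq2).

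The Sprr1 genes, which encode cross-bridging proteins of the same family, differed from each other. Sprr1b was low, with 2.05, 3.15 and 3.5 normalized counts in empty vector, 0.949, 0 and 0 in SAM1 and 17.8, 20.4 and 16.7 in SAM2. It fell in SAM1 (-1.62, adjusted p = 0.00463 from limma) and rose in SAM2 (2.32, adjusted p = 0.000364 from limma), the directions of the 7 genes, with 1 read in all of SAM1. The call in SAM1 was lost with a pseudocount of 10 (adjusted p = 0.0681). Sprr1a had 247, 248 and 231 in empty vector, 579, 596 and 549 in SAM1 and 2799, 2906 and 2766 in SAM2. It rose in both lines, by 1.24 in SAM1 and 3.54 in SAM2 (adjusted p = 7.47e-11 and 7.49e-15 from limma), and the lines differed by 2.29 (adjusted p = 1.11e-12 from limma).

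Within 500 kb of the chromosome 3 members, the table held 13 other genes. In SAM2, 12 of them were called higher and none lower by limma, where 35.2% of all genes were called higher and 35.3% lower. The exception was Kprp (adjusted p = 0.0801 from limma). Among the 12, Pglyrp3, Gm35439, Lelp1, Sprr2a3, Sprr2k and Sprr1b exceeded 10 normalized counts in SAM2 libraries only. They are in the table through SAM2 alone, so their calls were tied to that filter. The count is therefore not comparable with the shares over all genes, and nothing is read from it. The 12 include Lce1g and Lce1h, whose calls in SAM2 were lost in both count tests (adjusted p from 0.074 to 0.283 over edgeR and DESeq2). In SAM1, 6 were called higher and 2 lower, where 37.3% and 36.9% of all genes were. Their median log2 difference was 3.54 in SAM2 and 0.51 in SAM1, against 0.059 and 0.086 over the 757 listed genes of chromosome 3 other than the members. Between the lines, 9 were higher and 2 lower in SAM2, where 31.1% and 29.2% of all genes were called so.

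The neighbours are described by position, which was looked at after the values were seen. From Pglyrp3 to Sprr1a, every gene with a value that is not a member was called higher in SAM2, with the limit above for those in the table through SAM2 alone. Lelp1, a gene of the proline-rich late envelope proteins, went from 2.21 ± 1.24 in empty vector to 100.2 ± 6.38 normalized counts in SAM2 (SD, n = 3 each; 5.05, adjusted p = 2.26e-08 from limma), and Prr9 from 14.1 ± 3.43 to 297 ± 15.1 (SD, n = 3 each; 4.33, adjusted p = 1.33e-10 from limma). These genes did not share the low SAM1 levels of Lor, which lies among them, since Prr9 was called higher in SAM1 as well (0.51, adjusted p = 0.0180 from limma). Lelp1 was also called higher in SAM1 (1.23, adjusted p = 0.00543 from limma), but its value was -0.0099 under quantile normalization (adjusted p = 0.982). Lce1g and Lce1h, which encode late cornified envelope proteins and lie 434 and 447 kb beyond Sprr2b, had the opposite preference. Lce1h had 2.05, 2.10 and 1.17 normalized counts in empty vector, 111, 125 and 113 in SAM1 and 3.96, 2.78 and 4.64 in SAM2, and Lce1g had 9.21, 7.35 and 12.9, 240.1, 264 and 279 and 23.7, 11.1 and 22.3. Both rose in SAM1 (5.42 and 4.63, adjusted p = 1.03e-09 and 2.76e-09 from limma) and were lower in SAM2 than in SAM1 (-4.63 and -3.77, adjusted p = 1.47e-08 and 5.81e-08 from limma). Ivl, the gene of involucrin, which loricrin and SPRR proteins are cross-linked to, rose in both lines (2.26 in SAM1 and 1.61 in SAM2, adjusted p = 0.000162 and 0.00243 from limma), and SAM2 minus SAM1 was -0.64 (adjusted p = 0.174 from limma).

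**Figure D3:**
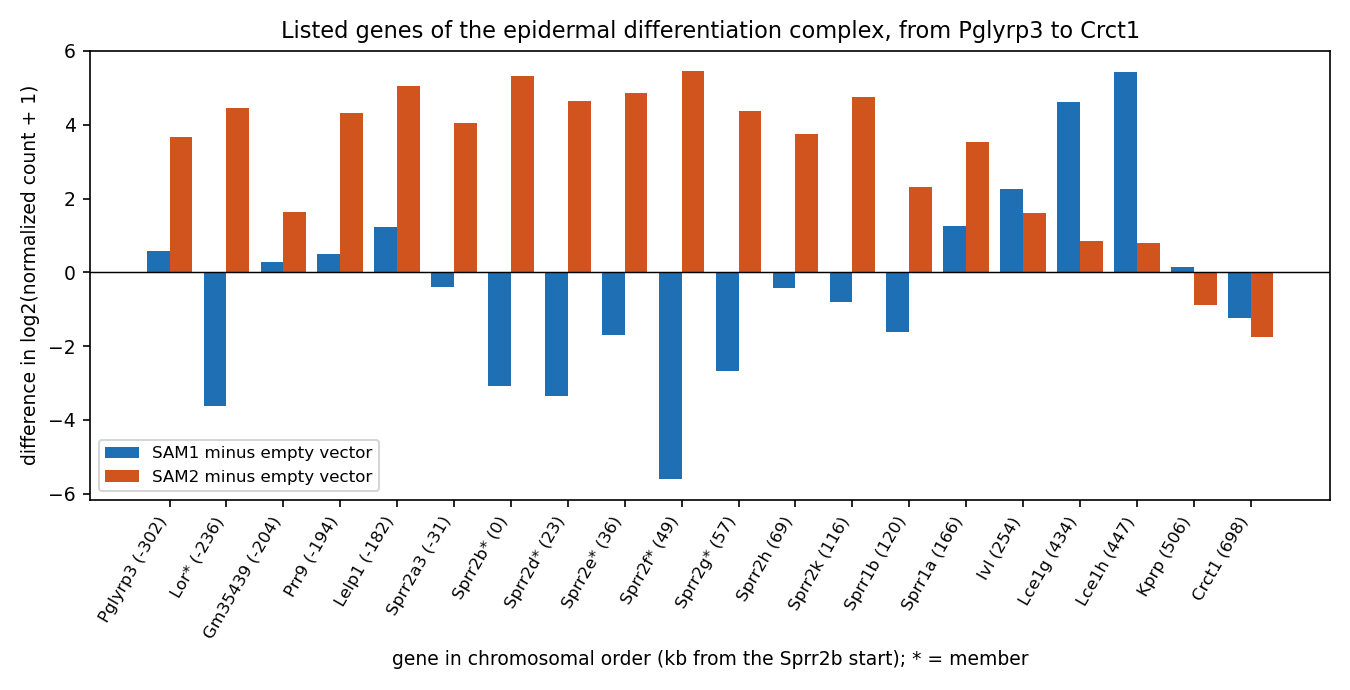
Differences from empty vector in log2(normalized count + 1) for SAM1 and SAM2 (bars) of the listed genes from Pglyrp3 to Crct1 in chromosomal order, with kb from the start of Sprr2b in parentheses and asterisks on the 6 members. SAM2 bars are positive from Pglyrp3 to Lce1h, while SAM1 bars are negative for the members and positive for Lce1g (4.63) and Lce1h (5.42).

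Around Cdsn the table held 39 other genes within 500 kb. In SAM1 23 (59.0%) were called higher and 8 (20.51%) lower, where 37.3% and 36.9% of all genes were. In SAM2 21 (53.8%) were higher and 8 (20.51%) lower, where 35.2% and 35.3% of all genes were. Their median log2 difference was 0.22 in either line, so the low Cdsn in SAM1 was not accompanied by a lower median of its neighbours. The largest differences near it were those of H2-Q4, a class I histocompatibility gene, at -1.97 in SAM1 and -2.40 in SAM2 (adjusted p = 1.86e-12 and 5.25e-13 from limma), and of Gm11131, at -1.12 and -1.78 (adjusted p = 0.000497 and 9.81e-06 from limma), both lower in both lines. Gm16279 (1.42 and 0.98), Ppp1r18os (1.26 and 0.64) and Tcf19 (1.26 and 0.98) were higher in both lines, with adjusted p between 1.63e-11 and 0.0216 from limma. Genes of the H2 family share sequence, and their counts are uncertain for that reason.

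The other genes of cornification were taken from 8 lists, of which 87 genes other than the members had values. In SAM1, 46 were called higher and 27 lower by limma, 52.9% and 31.0%, where 37.3% and 36.9% of all genes were. In SAM2, 46 were higher and 25 lower, 52.9% and 28.7%, where 35.2% and 35.3% of all genes were. The same shares of all genes stand behind the counts of each list that follows. Some list genes passed the filter of the table through 1 line alone, among them Dsp, Klk10, Krt16 and Prdm1 through SAM1, so their increases there were tied to that filter. The median log2 difference was 0.40 in SAM1 and 0.20 in SAM2. Of the 87 genes, 9 were called in opposite directions in the 2 lines, as were 885 of all 15184 genes.

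**Figure D4:**
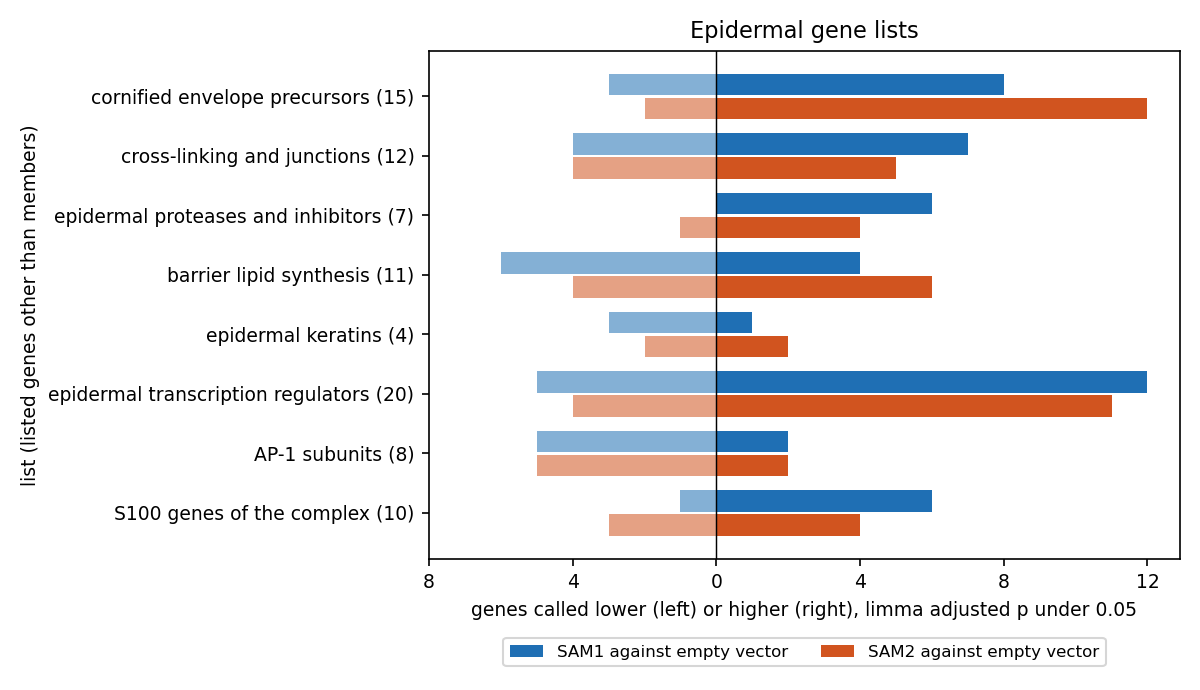
Number of genes called higher (right) or lower (left) by limma in SAM1 and SAM2 against empty vector in 8 epidermal lists, without the members; the number of listed genes is in parentheses. Among 15 cornified envelope precursors, 8 were called higher and 3 lower in SAM1, and 12 higher and 2 lower in SAM2.

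Among 15 other cornified envelope precursors, 8 were called higher and 3 lower in SAM1, and 12 higher and 2 lower in SAM2, with medians of 0.92 and 1.61. The 12 include Lce1g, Lce1h and Tchh, with low levels in SAM2 and calls there that were lost in both count tests (adjusted p from 0.074 to 0.283 over edgeR and DESeq2). They also include Lelp1, Sprr1b, Sprr2a3 and Sprr2k, which are in the table through the SAM2 libraries alone. Lce1h and Tchh are in it through the SAM1 libraries alone. In SAM1 the largest increases were in Lce1h and in Tchh, the gene of the hair follicle protein trichohyalin. Tchh had 0 reads in every empty vector library and 23.7, 26.7 and 21.5 normalized counts in SAM1, at least 22.2-fold higher against a floor of 3 reads over the empty vector group. The median of the list in SAM1 is the same with Tchh at that bound. Crct1, a small cysteine-rich gene of the complex, fell in both lines (-1.23 and -1.76, adjusted p = 9.18e-10 and 4.16e-11 from limma), and Csta2, a cystatin A gene, fell in SAM2 (-2.06, adjusted p = 0.000606 from limma). In SAM1 the difference of Csta2 was -0.52 (adjusted p = 0.271 from limma), and -1.42 under quantile normalization, where it was called (adjusted p = 0.0111). Flg and Sprr3 were not analysed here.

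Of 12 genes of cross-linking and junctions, 7 (58.3%) were called higher and 4 (33.3%) lower in SAM1, and 5 (41.7%) higher and 4 (33.3%) lower in SAM2. Perp, a desmosomal protein of stratified epithelia, fell in both lines from 4523 ± 231 normalized counts to 547 ± 23.0 in SAM1 and 415 ± 16.2 in SAM2 (SD, n = 3 each; adjusted p = 2.15e-14 and 1.46e-14 from limma). Gjb2, which encodes connexin 26, had log2 differences of -2.81 and -0.78 (adjusted p = 1.00e-11 and 4.54e-06 from limma), and Cldn1, a tight junction gene, fell in both lines (-1.75 and -1.23, adjusted p = 5.71e-11 and 2.70e-09 from limma). Cldn4, a claudin, rose in SAM1 (3.33, adjusted p = 1.18e-13 from limma) and fell in SAM2 (-0.79, adjusted p = 2.06e-07 from limma), opposite to Cdsn. Dsp, the gene of desmoplakin, rose in SAM1 (3.34, adjusted p = 7.16e-05 from limma), and the plakophilin genes Pkp1 and Pkp2 rose in both lines. Pkp1 rose by 1.98 and 1.92 (adjusted p = 5.30e-10 and 1.08e-09 from limma), and Pkp2 by 1.001 and 1.41 (adjusted p = 1.36e-10 and 7.89e-12 from limma). Pkp3, a further plakophilin gene, was not called in SAM1 (0.28, adjusted p = 0.119 from limma) and rose in SAM2 (0.39, adjusted p = 0.0353 from limma). Tgm1, the transglutaminase of the envelope, had 5.12, 7.35 and 4.67 normalized counts in empty vector, 6.64, 12.8 and 12.7 in SAM1 and 8.90, 10.2 and 11.1 in SAM2. Its differences were 0.77 in SAM1 (adjusted p = 0.0492 from limma) and 0.74 in SAM2 (adjusted p = 0.0619 from limma), and the former was lost without any one of 7 of the 9 libraries (all but empty vector replicate 2 and SAM1 replicate 1, adjusted p from 0.0581 to 0.161) and turned to -0.086 under quantile normalization.

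Epidermal proteases cleave corneodesmosomes, and their inhibitors restrain them. The list of these genes had 7 with values, among them Sbsn, a gene of neither class. Of the 7, 6 (85.7%) were called higher and none lower in SAM1, and 4 (57.1%) higher and 1 (14.3%) lower in SAM2. Between the lines, 6 were called lower in SAM2 than in SAM1, where 29.2% of all genes were. Spint1, a serine protease inhibitor, rose by 3.44 in SAM1 and 0.82 in SAM2 (adjusted p = 2.65e-10 and 0.000361 from limma). Klk10, a kallikrein, rose by 3.25 in SAM1 and 1.65 in SAM2 (adjusted p = 2.84e-06 and 0.00121 from limma), and the call in SAM2 was lost with DESeq2 (adjusted p = 0.0501). Slpi, a leukocyte protease inhibitor, rose by 3.19 in SAM1 and 2.35 in SAM2 (adjusted p = 4.81e-10 and 1.46e-08 from limma). Serpinb2 rose in SAM1 (2.04, adjusted p = 5.06e-09 from limma) and fell in SAM2 (-0.39, adjusted p = 0.0123 from limma), and the latter call was lost with edgeR (adjusted p = 0.0927) and DESeq2 (adjusted p = 0.177). Casp14 was not called in either line (adjusted p = 0.347 and 0.217 from limma).

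Of 11 genes of barrier lipid synthesis, 4 (36.4%) were called higher and 6 (54.5%) lower in SAM1, and 6 (54.5%) higher and 4 (36.4%) lower in SAM2. Ugcg, which makes glucosylceramide, fell in both lines (-1.91 and -1.40, adjusted p = 5.14e-15 and 1.14e-13 from limma), and Aloxe3, an epidermal lipoxygenase, rose in both (1.36 and 1.09, adjusted p = 6.23e-08 and 6.90e-07 from limma). Abhd5, a lipase activator, fell in both lines (-0.52 and -0.51, adjusted p = 9.18e-10 and 1.59e-09 from limma). Sult2b1, a cholesterol sulfotransferase, rose in SAM1 (0.88, adjusted p = 0.00371 from limma), a call that was lost under quantile normalization (0.40, adjusted p = 0.127), and its difference in SAM2 was 0.13 (adjusted p = 0.637 from limma). Fa2h, a fatty acid hydroxylase, had the directions of the 7 genes, with 7.16, 9.45 and 12.9 normalized counts in empty vector, 0.949, 1.97 and 1.95 in SAM1 and 21.8, 26.9 and 13 in SAM2. It fell by 2.04 on the log2 scale in SAM1 (adjusted p = 0.000243 from limma) and was 0.97 in SAM2 (adjusted p = 0.0325 from limma), a call that was lost without empty vector replicate 1 or 2 or SAM2 replicate 1 or 2 (adjusted p from 0.0672 to 0.143), with DESeq2 (adjusted p = 0.117) and under quantile normalization (adjusted p = 0.0730).

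Of the 4 epidermal keratins with values, Krt80 fell in both lines (-0.86 and -0.28, adjusted p = 4.38e-09 and 0.000221 from limma), as did Krt10, the suprabasal keratin (-0.70 and -1.22, adjusted p = 8.46e-05 and 4.78e-07 from limma). Krt7 had the directions of the 7 genes, -0.996 in SAM1 and 0.77 in SAM2 (adjusted p = 0.000774 and 0.00508 from limma). Krt16, a keratin of activated keratinocytes, rose in SAM1 from at most 1 read per library to 12.3, 13.8 and 15.6 normalized counts (adjusted p = 1.57e-05 from limma). Krt1, Krt5 and Krt14 had no values and could not be compared here.

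Of 20 epidermal transcription regulators, 12 (60%) were called higher and 5 (25%) lower in SAM1, and 11 (55%) higher and 4 (20%) lower in SAM2. Trp63, the master regulator of stratified epithelium, had 25.6, 18.9 and 15.2 normalized counts in empty vector, 29.4, 25.7 and 17.6 in SAM1 and 58.4, 62.1 and 64.0 in SAM2. It rose in SAM2 (1.61, adjusted p = 2.62e-05 from limma) and its difference in SAM1 was 0.27 (adjusted p = 0.291 from limma). It was higher in SAM2 than in SAM1 by 1.34 (adjusted p = 0.000204 from limma). Klf4, a factor of barrier formation, and Maf fell in both lines (Klf4 -0.87 and -0.73, Maf -1.06 and -1.45, adjusted p at most 5.81e-10 for Klf4 and 1.07e-09 for Maf from limma). Vdr, the vitamin D receptor, and Notch1, a receptor that promotes differentiation, rose in both (Vdr 3.52 and 2.09, Notch1 2.60 and 2.60, adjusted p at most 7.74e-12 and 3.42e-11 from limma). Cebpa fell in SAM1 (-1.04, adjusted p = 6.78e-05 from limma) and its difference in SAM2 was 0.15 (adjusted p = 0.417 from limma). Prdm1, which encodes BLIMP1, rose in SAM1 from 3.07, 1.05 and 3.5 to 34.2, 31.6 and 27.3 normalized counts (adjusted p = 5.49e-05 from limma). Grhl3 was not analysed here.

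Of the 8 genes of AP-1 subunits, 2 (25%) were called higher and 5 (62.5%) lower in each line. Fos rose in both lines (0.40 and 0.38) and Fosb fell in both (-1.28 and -0.96), with adjusted p at most 1.94e-07 for Fos and 1.59e-09 for Fosb from limma. Fosl1 rose in SAM1 (0.68, adjusted p = 2.60e-10 from limma) and had a difference of 0.01 in SAM2 (adjusted p = 0.727 from limma). Atf3 fell more in SAM1 (-1.35) than in SAM2 (-0.24), and SAM2 exceeded SAM1 by 1.11 (adjusted p = 5.13e-11 from limma). Jun fell more in SAM2 (-0.77, against -0.34 in SAM1; difference -0.43, adjusted p = 6.89e-09 from limma), and Junb was higher in SAM2 by 0.11 (adjusted p = 0.00630 from limma). In SAM1 the difference of Junb was 0.04 (adjusted p = 0.313 from limma), and it was called higher under quantile normalization (adjusted p = 0.000125) and upper quartile scaling (adjusted p = 0.0187). These genes were abundant in all groups, with means from 889 to 28378 normalized counts, and the difference from empty vector farthest from 0 among the 8 was that of Atf3 in SAM1.

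Of the 10 S100 genes of the complex, which encode calcium-binding proteins, 6 (60%) were called higher and 1 (10%) lower in SAM1, and 4 (40%) higher and 3 (30%) lower in SAM2. None was called higher in SAM2 than in SAM1 and 7 (70%) were called lower, where 31.1% and 29.2% of all genes were. S100a1 rose by 3.10 in SAM1 and 1.91 in SAM2, and S100a16 by 2.16 and 2.25 (adjusted p at most 5.87e-11 and 4.27e-11 from limma). S100a7a fell in both lines (-0.50 and -2.07, adjusted p = 0.000335 and 5.07e-10 from limma), S100a10 fell in SAM2 (-0.31, adjusted p = 4.56e-05 from limma; SAM1 0.07, adjusted p = 0.193), and S100a3 was lower in SAM2 than in SAM1 (-1.39, adjusted p = 1.23e-09 from limma).

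Some calls in SAM2 on list genes near the limit of detection depended on single libraries. That of Lce1g (0.85, adjusted p = 0.0106 from limma) was lost without SAM2 replicate 1 (adjusted p = 0.0540), and that of Lce1h (0.79, adjusted p = 0.0226 from limma) without empty vector replicate 3 or SAM2 replicate 3 (adjusted p = 0.0597 and 0.0731). The call of Dsp (1.26) was lost without empty vector replicate 3, any SAM1 library, or SAM2 replicate 2 or 3 (adjusted p from 0.0538 to 0.201), and that of Prdm1 (-1.24) without any library other than empty vector replicate 2 and SAM2 replicate 2 (adjusted p from 0.0606 to 0.124). The calls of Krt16 (1.16) and Tchh (1.41) were lost without any of 8 libraries (all but empty vector replicate 3 for Krt16, with adjusted p from 0.0635 to 0.106, and all but SAM2 replicate 3 for Tchh, with adjusted p from 0.0635 to 0.181). The calls of these 6 genes in SAM2 were also lost in both count tests (adjusted p from 0.0667 to 0.306 over edgeR and DESeq2). Between the lines, the call of Aloxe3 (-0.27) was lost without SAM1 replicate 3 or any SAM2 library (adjusted p from 0.0717 to 0.194) and that of Sult2b1 (-0.75) without SAM2 replicate 2 (adjusted p = 0.0619).

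A log2 difference of at least 2 downward in SAM1 and at least 2 upward in SAM2 was found in 7 genes of the table (0.0461% of all genes). Of these, 5 were members, namely Sprr2b, Sprr2d, Sprr2f, Sprr2g and Lor. The members were selected for opposite differences in these same libraries, so nothing is read from that count. Sprr2e, with -1.69 in SAM1, and Cdsn, with 0.87 in SAM2, lay outside this bound. The other two genes, named after their values were seen, were Kap, an androgen-regulated protein of the kidney, and Ano5, an anoctamin. Kap had 20.46, 24.2 and 17.5 normalized counts in empty vector, 0 in every SAM1 library and 568, 567 and 579.9 in SAM2, and was at least 21.3-fold lower in SAM1 than in empty vector against a floor of 3 reads over the SAM1 group. Ano5 had 5.12, 5.25 and 7.01 in empty vector, 0 in SAM1 and 122, 127 and 135 in SAM2, and was at least 5.97-fold lower in SAM1. Both thus had the shape of the SPRR2 profile without belonging to the epidermal lists.

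**Figure D5:**
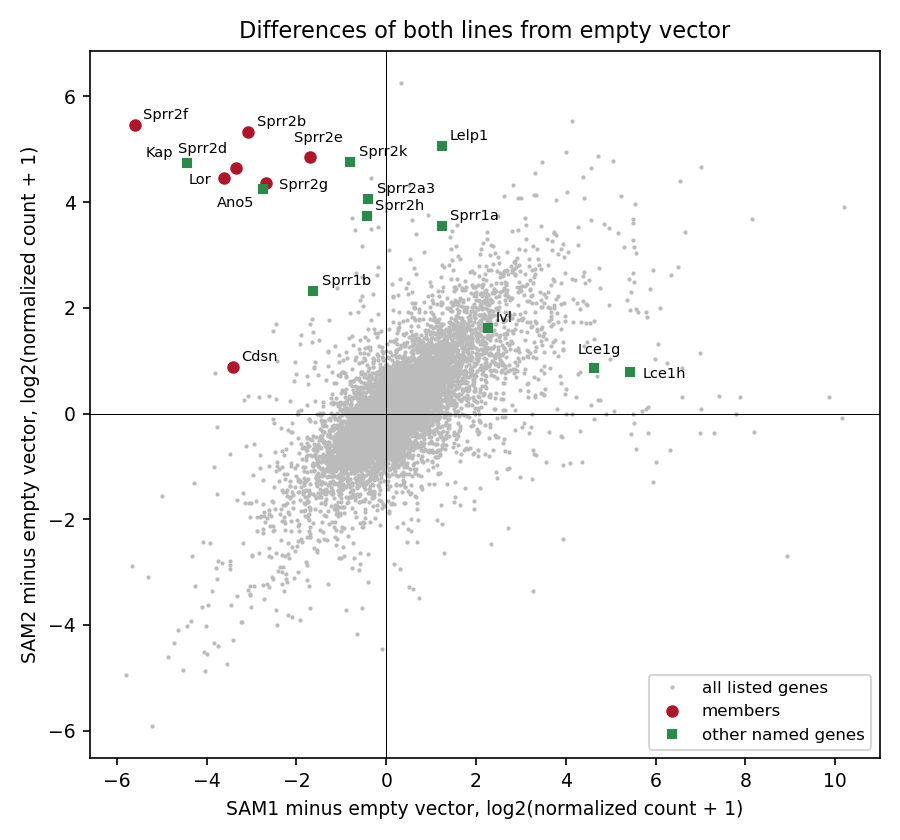
Difference from empty vector in log2(normalized count + 1) in SAM1 (horizontal) and SAM2 (vertical) for all 15184 genes (grey), the 7 members (red) and other named genes (green). The members lie in the upper left, from Cdsn (-3.42 and 0.87) to Sprr2f (-5.60 and 5.45), while Lce1g and Lce1h lie to the right.

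Across the 9 libraries, the log2 levels of the 7 genes correlated pairwise with Pearson's r from 0.816 to 0.995 (21 pairs, median 0.980), which describes 3 groups of libraries rather than 9 independent points. The 3 listed genes most like each member by this measure were Lpar4, Cacna1g and Ero1a for Sprr2b (r of 0.999, 0.998 and 0.998), Lor, Crk and Hfe for Sprr2d (0.995, 0.995 and 0.994), Clcc1, Fbxo10 and Mthfd2 for Sprr2e (0.993 each), Phf10, Kap and Car6 for Sprr2f (0.999 each), Ano5, Tm7sf3 and Mthfd1l for Sprr2g (0.999, 0.997 and 0.997), Sprr2d, Lck and Hfe for Lor (0.995, 0.994 and 0.993), and Gpt2, Rnf185 and Mdfic for Cdsn (0.999, 0.999 and 0.998). Most of these genes changed much less than the members. Crk, for example, ranged between group means of 8161 and 9567 normalized counts, so likeness here is one of order and spacing and not of size.

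The cells carried the markers of fibroblasts, all 10 of which had values. Their summed levels were 1022260 to 1115776 normalized counts in empty vector, 843472 to 903972 in SAM1 and 1146538 to 1185208 in SAM2. Fn1, Col1a1 and Col1a2 made up most of this sum, and single fibroblast markers moved in different directions. Dcn had 11477.2, 11984.1 and 11982.5 in empty vector, 2735, 2723 and 2680 in SAM1 and 2481, 2610 and 2524 in SAM2. Pdgfrb had 6966, 6211 and 6530, then 12765, 12110 and 12856, then 9489.5, 9551 and 9497. Of 12 keratinocyte markers, 7 had values, and their sum was lower in both lines, at 4872 to 5374 in empty vector, 1093 to 1159 in SAM1 and 804 to 813 in SAM2. Perp, at means of 4523, 547 and 415, was a large part of it. The single markers did not move together. In SAM2, Trp63 and Lamb3, a laminin subunit of the basement membrane, were called higher, Lamb3 from a mean of 5.20 to 28.4 normalized counts (2.42, adjusted p = 5.88e-05 from limma). Krt10, Col17a1, Itgb4, Sfn and Perp were called lower there. In SAM1, Lamb3 (2.13, adjusted p = 0.000165 from limma) and Itgb4 (1.48, adjusted p = 1.21e-06 from limma) were called higher and Krt10, Sfn and Perp lower. The defining basal keratins Krt5, Krt14 and Krt15 were among the markers without values, so they could not be compared here. Simple epithelium markers (5 of 10 with values) summed to 2301 to 2491 in empty vector, 7303 to 7814 in SAM1 and 2972 to 3062 in SAM2, and mesothelium markers (3 of 6) to 9327 to 9995, 3961 to 4455 and 5281 to 5340. Endothelium markers (4 of 5) summed to 301 to 357, 4613 to 4988 and 638 to 689, mostly from Kdr, and macrophage markers (2 of 5) to 529 to 639, 753 to 800.0 and 652 to 689. A marker has a value only if it exceeded 10 normalized counts in at least 3 libraries, so that filter alone keeps markers with values above 0. The part of these markers in the levels of the 7 genes was not tested.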

How the data were processed

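RNA of 9 libraries was sequenced on a NextSeq500 as read pairs. Following the methods and the submitters' processing notes, the authors checked reads with FastQC 0.11.0, aligned them to GRCm39 with TopHat2 and Bowtie2 (3 mismatches, up to 20 hits), counted genes of Gencode vM29 with HTSeq, divided the counts by DESeq2 size factors, kept genes above 10 in at least 30% of samples and deposited these normalized counts (signal) for 15184 genes. Whether the counting used strand is not given in the sources used here.

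The values of 8 libraries were whole multiples of 1 read (100% of values within a tolerance of 0.1 read), which gave their reads; those of SAM2 replicate 1 were not recovered. Depth is known for these 8 libraries and limits precision for genes with few reads. From the deposited values, a limma 3.58.1 model (R 4.3.3) of 3 groups with a trended prior was made on log2(normalized count + 1). Its two-sided p-values were corrected over all 15184 genes (Benjamini-Hochberg) and called at 0.05. Fold changes on this scale understate the change of low genes. On simulated data the script was tested before use. On the recovered reads, edgeR 4.0.16 called 11150 genes in SAM1 and 9988 in SAM2, and DESeq2 1.42.0 called 10528 and 9334. Libraries of 1 group differed by more than sampling noise (1.46 to 13.8 chi-square units per gene), and each counted as 1. Intervals are exact at 95%. Annotation was GENCODE vM39, with 14792 genes matched by name once, and Lor was matched as Loricrin. Promoter windows were from RefSeq for GRCm38.p6.

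The members, the gene lists and the tests were chosen with earlier results of these data known. Named genes were the 7 members, 13 chosen epidermal genes, the 2 largest increases and 2 largest decreases called in each list and comparison, up to 5 neighbours within 500 kb at each locus with the largest difference, the 3 genes most like each member, and cell type markers; a result that this rule names is not reported here. Alternatives were pseudocounts of 0.5 and 10, a mean of at least 50, quantile normalization, upper quartile scaling, the replicate number as a block, both count tests, both lines as a mean, each library left out and, added after seeing the data, ratios of recovered reads.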

Additional observations from a re-analysis of the deposited data

Results flagged for a closer look

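The 7 members are listed here because every library of SAM1 lay on one side of empty vector and every library of SAM2 on the other. They were selected for this property, so nothing is read from it. Over all genes of the table, 3.84% showed the arrangement of the members and 3.07% the reverse. Their log2 differences of SAM2 from SAM1 were 8.40 for Sprr2b, 7.99 for Sprr2d, 6.54 for Sprr2e, 11.05 for Sprr2f, 7.04 for Sprr2g, 8.08 for Lor and 4.29 for Cdsn. These differences were not tested, because the genes were selected on them.

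Among the other named genes of the epidermal lists, 8 were called in opposite directions in the lines and differed between the lines by limma. SAM2 was higher than SAM1 in Sprr2k (5.55, adjusted p = 1.53e-09 from limma), Sprr1b (3.95, adjusted p = 5.46e-06 from limma), Fa2h (3.01, adjusted p = 1.40e-05 from limma), Krt7 (1.77, adjusted p = 9.74e-06 from limma) and Dgat2 (0.75, adjusted p = 2.60e-08 from limma), a gene of triglyceride synthesis. SAM2 was lower than SAM1 in Prdm1 (-4.49, adjusted p = 5.42e-06 from limma), Cldn4 (-4.13, adjusted p = 9.75e-14 from limma) and Serpinb2 (-2.43, adjusted p = 2.75e-09 from limma). Each of these differences had all 3 libraries of one line above all 3 of the other. The opposite calls against empty vector were less firm for some of these genes. Those of Sprr2k in SAM1 and of Prdm1 and Serpinb2 in SAM2 were lost in both count tests. That of Fa2h in SAM2 was lost with DESeq2, and that of Sprr1b in SAM1 with a pseudocount of 10. Sprr2k and Sprr1b are in the table through SAM2 alone, and Prdm1 through SAM1 alone. Outside these lists, Kap, Ano5 and several genes named for their likeness to a member, such as Lpar4 and Cacna1g, were also called in opposite directions. These were named by their values, so nothing is read from that.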

How the results depend on the processing

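All 7 members stayed lower in SAM1 and higher in SAM2 under every alternative run. They were selected for these directions on the same values, so nothing is read from that. Their median log2 difference in SAM1 (-3.34) was -2.01 with a pseudocount of 10 and -3.75 with quantile normalization, and in SAM2 (4.65) it was 4.21 with a pseudocount of 10. With that pseudocount the SAM1 differences were -1.06 for Sprr2b, -1.21 for Sprr2d, -0.81 for Sprr2e and -3.39 for Sprr2f, and that of Sprr2e was -2.72 with quantile normalization. Leaving out 1 library gave medians from -3.46 to -3.01 in SAM1 and from 4.44 to 4.89 in SAM2. The numbers of genes called stayed within 1.5 times of 11275 in SAM1 (9641 to 11631), of 10699 in SAM2 (9334 to 11095) and of 9162 between the lines (7565 to 9812), and with both lines as 1 group 8179 genes were called (6761 to 11323). Epidermal list genes numbered 73 in SAM1 (55 to 76), 71 in SAM2 (53 to 71) and 64 between the lines (47 to 68). Lelp1 in SAM1 reversed with quantile normalization (-0.0099, adjusted p = 0.982 from limma), as did Tgm1 in SAM1 (-0.086, adjusted p = 0.829 from limma), and the cause was not tested. Of 2989 comparisons of 1 named gene with an alternative, 92 lost a call, 16 gained one and 2 reversed, with the direction kept in the others that changed call. No label says that a replicate number marks a shared culture or batch, so no pairing was assumed. The mean r of deviations from the groups was 0.053 (0.00237 to 0.117, not above 0.1 in every pair) over 9 pairs of the same number and -0.0265 over 18 others, and 8 of 9 libraries correlated best with their own number, which is a hint of pairing from the data and not from the design. With the replicate block 11631, 11095 and 9812 genes were called, 72, 71 and 66 of the list genes, medians stayed at -3.34 and 4.65, and the named calls lost were Krt16 in SAM2 (adjusted p = 0.0564) and Tgm1 in SAM1 (adjusted p = 0.0529). Depth limits the SAM1 levels of Sprr2b and Sprr2d, which rest on 2 and 3 reads.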
